A study of Mus musculus with 2 samples.

Results

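Olig1, Olig2, Sox10, Pdgfra, Cspg4, C1ql1, Gpr17 and Enpp6, 8 genes of oligodendrocytes and their precursors, were followed in long-read RNA sequencing of mouse cortex, in which a single read can run along a whole transcript. They were taken by gene name and are 8 of the 18907 annotated genes that had a read, and all 8 had enough reads to be tested. The tissue was left cerebral cortex of the mouse strain B6NCrl, taken from adults at 6 months, and total RNA from it gave biological replicates 1 and 2. No genotype or treatment was given, and there was 1 group, so the only contrast was one library against the other. The labels point both samples to 1 donor entry and do not call them separate animals, so differences between the libraries may be technical. P-values set these 2 libraries against counting noise only and measure no spread between animals.

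Replicate 1 held 1306424 reads and replicate 2 held 1304133 reads. Levels are given as CPM, the reads of a gene per 1000000 reads of its library, so that a single read was 0.765 CPM in replicate 1 and 0.767 CPM in replicate 2. A count of 0 allowed up to 3 reads, or 2.30 CPM in either library, and intervals below cover counting error only. One label described the tissue as male and another gave the sex as not collected, while 4 Y-linked genes had 0 reads in both libraries and Xist had 29 and 27. Defining genes of cortical cells were present in both libraries but not always evenly. Of excitatory neurons, Neurod6 had 81 and 93 reads, Camk2a 390 and 691, and Slc17a7 130 and 36, called lower in replicate 2 (log2 ratio -1.84, adjusted p = 5.72e-12, exact binomial test). Of inhibitory neurons, Gad1 had 227 in each and Gad2 72 and 142, and Aqp4 of astrocytes had 90 and 120.

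Oligodendrocytes, which wrap axons in myelin, arise from precursor cells that persist in the adult cortex. Olig2 and Olig1 are paired basic helix-loop-helix transcription factors that specify and mature the lineage, and Sox10 is an HMG-box factor that drives myelin genes. PDGF acting on the receptor Pdgfra keeps precursors dividing, the proteoglycan NG2, encoded by Cspg4, marks their surface, and Gpr17 and then Enpp6 are switched on as they commit to differentiation.

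The coding sequences of Olig2, C1ql1, Sox10 and Olig1 hold stretches of high GC content. Those of Olig2, C1ql1 and Sox10 are shown because no model of Olig2 or C1ql1 in replicate 2 covered them, and all but 2 of its Sox10 reads lay outside. The stretch of Olig1 is shown beside them, and all 94 Olig1 reads of replicate 2 were on a model that covers it. That model is a single exon, so it does not show whether the reads themselves reached the stretch. Each line is the richest 100 bases of coding sequence, read 5′ to 3′ from GENCODE M21 transcripts on mouse build mm10, and capitals mark the longest run of G and C alone. Olig2 lay at chr16:91227004-91227103 on the plus strand, with 87% GC. C1ql1 lay at chr11:102946257-102946356 on the minus strand, with 84% GC. Sox10 lay at chr15:79163573-79163672 on the minus strand, and Olig1 at chr16:91270340-91270439 on the plus strand, each with 81% GC.
Olig2: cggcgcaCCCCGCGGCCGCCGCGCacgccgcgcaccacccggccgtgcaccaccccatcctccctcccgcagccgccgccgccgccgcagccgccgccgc
C1ql1: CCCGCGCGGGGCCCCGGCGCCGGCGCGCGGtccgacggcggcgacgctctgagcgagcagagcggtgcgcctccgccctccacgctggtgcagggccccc
Sox10: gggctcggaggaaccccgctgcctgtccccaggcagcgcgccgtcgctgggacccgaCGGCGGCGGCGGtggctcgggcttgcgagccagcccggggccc
Olig1: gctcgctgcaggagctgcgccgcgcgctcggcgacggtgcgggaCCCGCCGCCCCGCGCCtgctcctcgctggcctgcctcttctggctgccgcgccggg
The run of G and C alone was 30 bases long in C1ql1, 17 in Olig2, 16 in Olig1 and 12 in Sox10.

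Summed over the 8 genes, replicate 1 held 327 reads and replicate 2 held 161, which is 187 ± 89.7 CPM (SD, n = 2). Olig1 was the most abundant and Cspg4 the least by mean. The lowest value of Olig1, 72.1 CPM, lay above the highest of Olig2, 69.7 CPM, and apart from that gap each gene's pair of values overlapped or met that of its neighbour in the order. A long read stands for 1 molecule whatever its length, so CPM was not divided by length. When it was, by the kilobases of each gene's reference transcript, Olig1 (43.0 CPM per kb), Olig2 (14.7) and Cspg4 (0.754) kept their places, C1ql1 (6.24) came before Sox10 (5.22), and Pdgfra (1.40) stood the seventh.

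**Figure D1:**
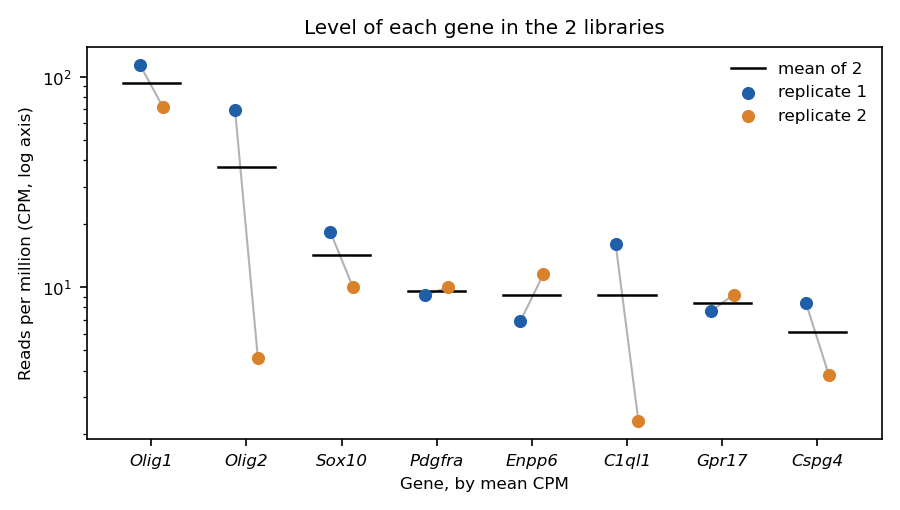
Level of each gene in CPM (log axis) in replicate 1 (blue) and replicate 2 (orange), with the mean of the 2 libraries as a bar, in order of the mean. Olig2 (69.7 and 4.60 CPM) and C1ql1 (16.1 and 2.30 CPM) have the widest gaps, and Pdgfra (9.19 and 9.97 CPM) the narrowest.

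Among the transcription factors, Olig2 was lower in replicate 2 and the other 2 were not called. Olig2 (ENSMUSG00000039830.9, chr16:91225457-91228677, plus strand, 2 exons) had 91 reads in replicate 1 against 6 in replicate 2, at 69.7 and 4.60 CPM. Almost all of its reads came from replicate 1, a ratio of 15.1 with a 95% Clopper-Pearson interval of 6.69 to 42.3. The log2 ratio of replicate 2 to replicate 1 was -3.81, with an adjusted p of 1.08e-18 (exact binomial test, two-sided, on the totals of the libraries, with Benjamini-Hochberg adjustment over all genes). The 91 reads of replicate 1 were 82 on the annotated 2-exon transcript and 9 on a single unspliced model from the last base of exon 1, through the intron, to the end of the gene. The 6 of replicate 2 all lay on 1 unspliced model, chr16:91227469-91228677, wholly within the 3′ untranslated region. Replicate 2 thus had no Olig2 read on a model with coding sequence, and reads on the annotated transcript were at least 27.3-fold lower there, taking 3 reads as the limit for a count of 0.

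Olig1 (ENSMUSG00000046160.6, chr16:91269772-91271933, plus strand), which lies beside Olig2 and has a single exon, had 149 and 94 reads, or 114 and 72.1 CPM. Both libraries held many reads, with replicate 1 the higher (ratio 1.58, interval 1.21 to 2.07). The log2 ratio of -0.66 passed the adjusted p (0.00641, exact binomial test) and not the size limit of 2-fold, so Olig1 was not called. All but 1 of its reads in replicate 1, and every one in replicate 2, were given to its annotated transcript. With no intron, the deposited models do not show where along this transcript a read began.

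Sox10 (ENSMUSG00000033006.10, chr15:79154908-79165240, minus strand) had 24 reads in replicate 1 against 13 in replicate 2, at 18.4 and 9.97 CPM, with a ratio of 1.84 and an interval of 0.902 to 3.94. Its total was not called (log2 ratio -0.86, adjusted p = 0.338, exact binomial test), and of 37 reads at most 9 could have been in replicate 2 for a lower call. Its models differed all the same. Replicate 1 had 17 reads on the annotated 4-exon transcript and 3 on an unspliced model within the last exon, while replicate 2 had 1 and 11. The full chain of exons was therefore the usual Sox10 read in replicate 1 and the exception in replicate 2.

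Of the surface and secreted proteins, C1ql1 was lower in replicate 2, and Pdgfra and Cspg4 were not called. C1ql1 (ENSMUSG00000045532.5, chr11:102939264-102946688, minus strand), a secreted C1q-like protein, had 21 and 3 reads, or 16.1 and 2.30 CPM. The ratio was 6.99 with an interval of 2.09 to 36.6, and the log2 ratio was -2.62 (adjusted p = 0.00382, exact binomial test). All but 1 read of replicate 1 joined exons 1 and 2 as annotated, and 0 of replicate 2 did, at least 6.65-fold lower. The 3 reads of replicate 2 lay on a model of exon 2 alone, which carries the end of the coding sequence and the 3′ untranslated region. The junction that was read in replicate 1 alone is shown here, exon 1 in lower case and exon 2 in capitals.
C1ql1: tgcaagaacggccagGTGCGGGCCAGTGCA

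Pdgfra (ENSMUSG00000029231.15, chr5:75152292-75198215, plus strand), the receptor for PDGF-AA, had 12 and 13 reads, or 9.19 and 9.97 CPM. The 2 libraries differed by 1 read (log2 ratio 0.11, adjusted p = 0.976, exact binomial test). Most of these reads, 8 in replicate 1 and 10 in replicate 2, were on a model of the last exon alone, which holds the end of the coding sequence and the long 3′ untranslated region. No model held the whole coding sequence of the 23-exon reference transcript, the longest protein-coding one annotated. The longest model covered 70.9% of its bases in replicate 1, with 14 exons, and 67.1% in replicate 2, with 11 exons. A single read of replicate 1 matched an annotated transcript along its exon chain, a form of 16 exons with an earlier 3′ end.

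Cspg4 (ENSMUSG00000032911.6, chr9:56865033-56899870, plus strand) had 11 and 5 reads, or 8.42 and 3.83 CPM (log2 ratio -1.06, adjusted p = 0.525, exact binomial test). Its 16 reads could have given a lower call only with at most 2 in replicate 2. In replicate 1, 10 reads were on a model of the last exon and 1 on a model of 8 exons, and in replicate 2, 4 were unspliced and 1 was on a model of 7 exons. No model reached the first 3693 bases of this transcript, the longest of the 8 at 8121 bases, and the best model covered 43.5% of it. Levels of Pdgfra and Cspg4 were therefore read mostly from their 3′ ends.

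Enpp6 (ENSMUSG00000038173.15, chr8:46986887-47096762, plus strand), a choline phosphodiesterase of newly formed oligodendrocytes, had 9 and 15 reads, or 6.89 and 11.5 CPM (log2 ratio 0.71, adjusted p = 0.548, exact binomial test). Its multi-exon reads were 8 of 9 and 14 of 15. Enpp6 had the lowest GC content of the 8, 42.3% over its reference transcript. Pdgfra, the next lowest at 48.1%, had 4 of 12 and 3 of 13 reads on multi-exon models. The reads of Enpp6 showed 3 ways of going on after exon 7, in both libraries. In replicate 1, 4 of the 8 reads that reached exon 7 went on to exon 8 of the reference transcript, 3 to an exon between them that starts at position 47082864, and 1 ran on past the end of exon 7. In replicate 2 these were 5, 4 and 2 of 11. The counts are too few to compare the shares, but each ending recurred in the second library. The 3 continuations are shown because they separate the endings, with the last bases of exon 7 in lower case and what follows in capitals, in the order exon 8, exon between and read-through.
Exon 8: tggccatcggacctgATTTCAAGTCCAACT
Exon between: tggccatcggacctgCTATCTGATGTCCAG
Read-through: tggccatcggacctgGTAGGCAAGGAGATG
The exon between is annotated in a single transcript, marked as incomplete at its 5′ end, that begins within exon 6. All reads with it joined it to the first exon of the gene, and 1 of the 4 in replicate 2 then went on to exon 8.

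Gpr17, like Enpp6, had slightly more reads in replicate 2 and was not called. Gpr17 (ENSMUSG00000052229.5, chromosome 18, 31942997 to 31949636, minus strand), a G protein-coupled receptor of precursors about to differentiate, had 10 and 12 reads, or 7.65 and 9.20 CPM (log2 ratio 0.25, adjusted p = 0.901, exact binomial test). Only 2 reads in replicate 1 and 1 in replicate 2 covered its coding sequence, on the annotated transcript. The other 8 and 11 lay in the 3′ untranslated region of 3995 bases. A model with the same unannotated intron within this region was found once in each library, an observation made after the models were seen.

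Of the 8 genes, 2 were called lower in replicate 2 and 0 higher, where a call needed an adjusted p under 0.05 and at least 2-fold. Over all 11838 genes tested, 5.44% were called lower and 1.61% higher. With 8 genes, 2 calls are few to set against that background, and these genes were chosen with earlier results known. The median log2 ratio was -0.76 over the 8 genes and 0.0025 over all genes tested. Leaving out Olig1 and Olig2, the other 6 summed to 87 and 61 reads, or 56.7 ± 14.0 CPM. The test compared 2 libraries with counting noise and says nothing of a condition.

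**Figure D2:**
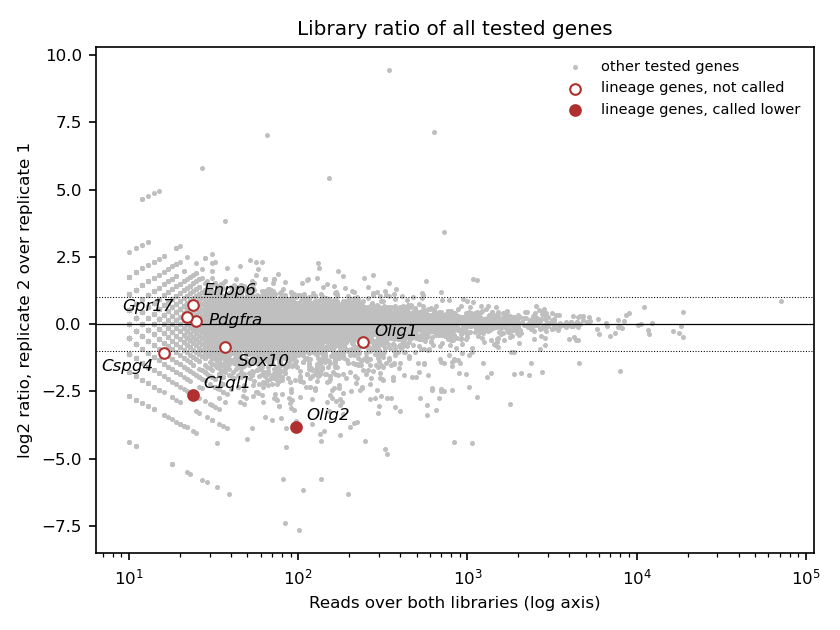
Log2 ratio of replicate 2 to replicate 1 against reads over both libraries (log axis) for all 11838 tested genes (grey) and the 8 lineage genes (red, filled where called), with dotted lines at 2-fold. Olig2 (-3.81) and C1ql1 (-2.62) lie below the lower line with a call, and Cspg4 (-1.06), with 16 reads, lies just below it without one.

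Known models are those with the full exon chain of an annotated transcript. Over the 8 genes they took 275 of 327 reads in replicate 1 (84.1%, 95% Clopper-Pearson interval 79.7 to 87.9) and 102 of 161 in replicate 2 (63.4%, interval 55.4 to 70.8). Most of these were Olig1. Without it they took 127 of 178 reads (71.3%) and 8 of 67 (11.9%, interval 5.30 to 22.2), while reads on all other models numbered 51 and 59. Over all annotated genes the share on known models was 71.9% in replicate 1 against 67.7% in replicate 2, and the median gene had 56.3% and 45.5%. Models that match part of an annotated chain (ISM) held most reads of Pdgfra in both libraries and of Cspg4 in replicate 1. Unspliced or otherwise unmatched models (genomic) held 11 of 13 Sox10 reads, 11 of 12 Gpr17 reads and all 6 Olig2 reads of replicate 2.

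**Figure D3:**
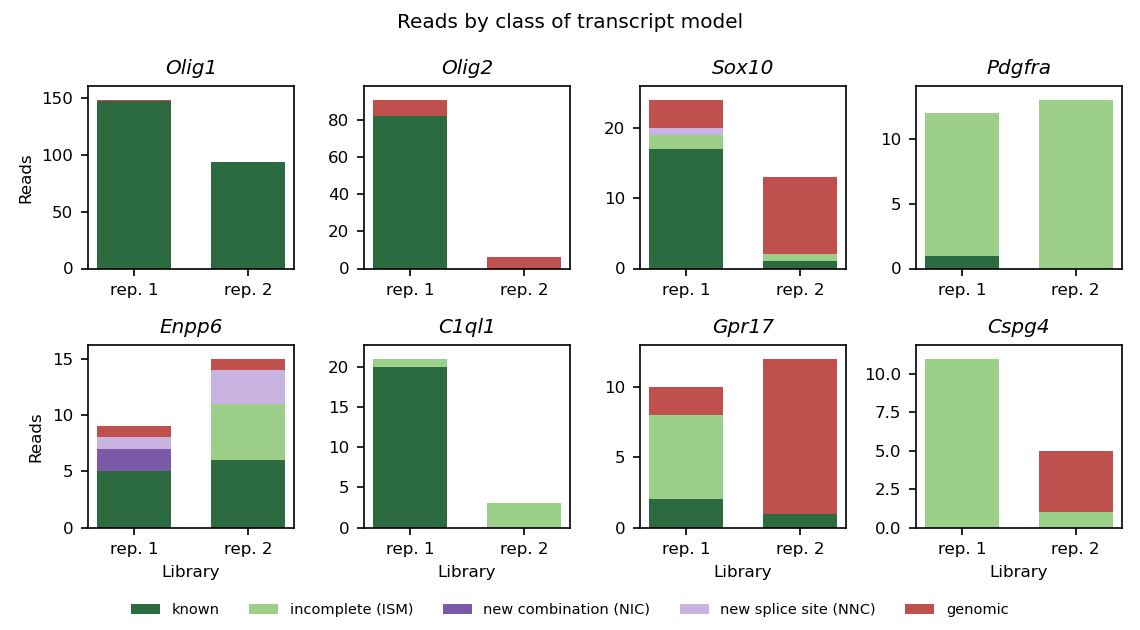
Reads of each gene on known, incomplete, new-combination, new-splice-site and genomic models in replicate 1 (left bar) and replicate 2 (right bar), on a separate scale for each gene. Known reads went from 82 to 0 in Olig2, from 20 to 0 in C1ql1 and from 17 to 1 in Sox10, and stood at 5 and 6 in Enpp6.

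For each gene the share of known reads was set against that of the other library with an exact test of Fisher's kind, adjusted over 11813 genes and chosen after the models were seen. It was lower in replicate 2 for Olig2 (90.1% of 91 reads against 0% of 6, adjusted p = 0.000245), Sox10 (70.8% of 24 against 7.69% of 13, adjusted p = 0.0101) and C1ql1 (95.2% of 21 against 0% of 3, adjusted p = 0.0412). The other 5 genes did not pass (adjusted p = 1 in each, Fisher's exact test). Over all genes the share was lower in replicate 2 in 4.88% and higher in 0.119%, 576 genes against 14. With at least 10 reads asked for in each library, Olig2 and C1ql1 could not be tested and Sox10 alone passed. With genomic models left out, C1ql1 alone passed, Olig2 could not be tested, and Sox10, at 17 of 20 and 1 of 2 reads, did not pass (adjusted p = 1, Fisher's exact test).

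The placement of models along each reference transcript showed where the libraries parted. In Olig2 the reads of replicate 2 began 1321 bases from the 5′ end, past the coding sequence. In Sox10, 11 of 13 reads of replicate 2 were on a model that began 1384 bases in, and in C1ql1 all 3 began 824 bases in, at the start of exon 2. Models with the whole coding sequence took 91 of 91 Olig2 reads in replicate 1 and 0 of 6 in replicate 2, 20 of 21 and 0 of 3 C1ql1 reads, and 17 of 24 and 2 of 13 Sox10 reads. For Enpp6 they took 4 of 9 and 6 of 15, 1 of the latter with the exon between inserted. Read positions are those of the models, and reads pooled into 1 model may start elsewhere.

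**Figure D4:**
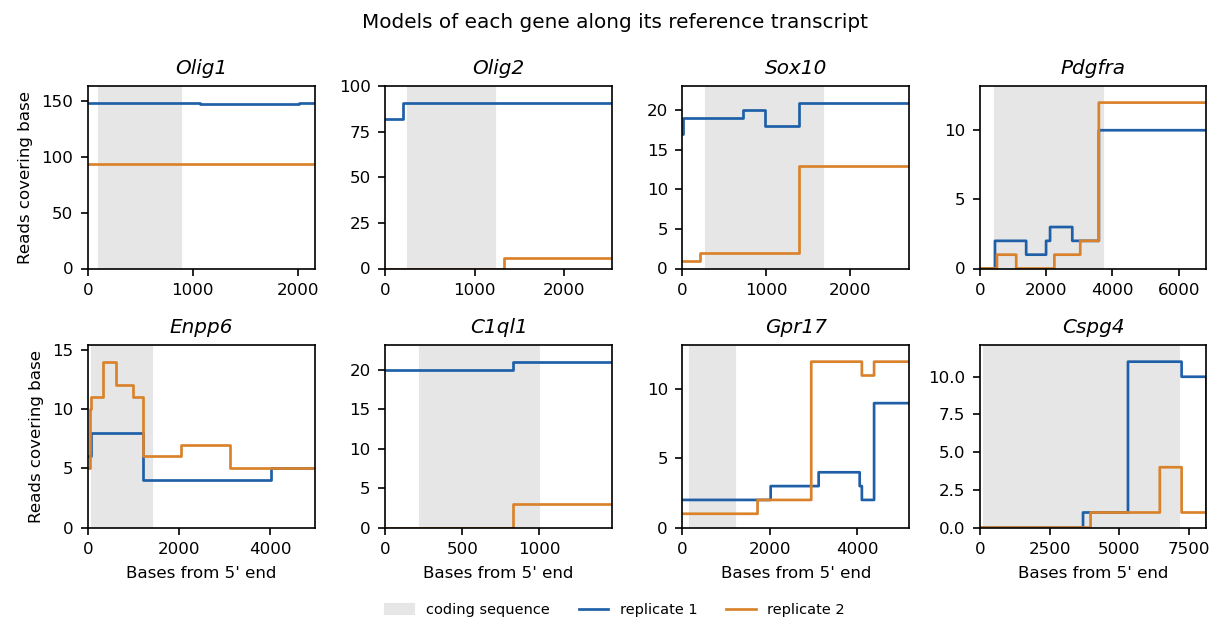
Reads on models that cover each base of the reference transcript, from the 5′ end, in replicate 1 (blue) and replicate 2 (orange), with the coding sequence in grey and separate scales for each gene. In Olig2, C1ql1 and Sox10 the line of replicate 2 stays at 0 to 2 reads over the 5′ part and rises toward the 3′ end, while in Pdgfra and Cspg4 both lines are at 3 reads or fewer over the 5′ part.

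GC content was set beside this pattern. The richest 100 bases anywhere in the reference transcript had 87% GC in Olig2, 86% in C1ql1, 81% in both Sox10 and Olig1, 71% in Pdgfra and Cspg4, 69% in Gpr17 and 66% in Enpp6, against a median of 73% over tested genes. For that median the transcripts were chosen by another rule, under which Pdgfra had 63%. The 2 called genes were the 2 with the highest values. Olig1, at the same 81% as Sox10, was not called, and all 94 of its reads in replicate 2 were on its annotated transcript. With a single exon, that model does not show whether those reads reached its richest window. Within Olig2 the coding sequence had 69.7% GC and the region after it, where all reads of replicate 2 lay, 50.3%. In C1ql1 the region before the coding sequence had 81.9%, the coding sequence 65.4% and the region after it 58.7%. Across all tested genes, 21.6% of the 811 with a window of at least 86% were called lower, 18.0% of the 2515 with at least 81%, and 2.05% of the 9317 below that. The limits of 86% and 81% equal the values of C1ql1 and of Sox10 and Olig1. The part of GC content in the differences of Olig2, C1ql1 and Sox10 was not tested.

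**Figure D5:**
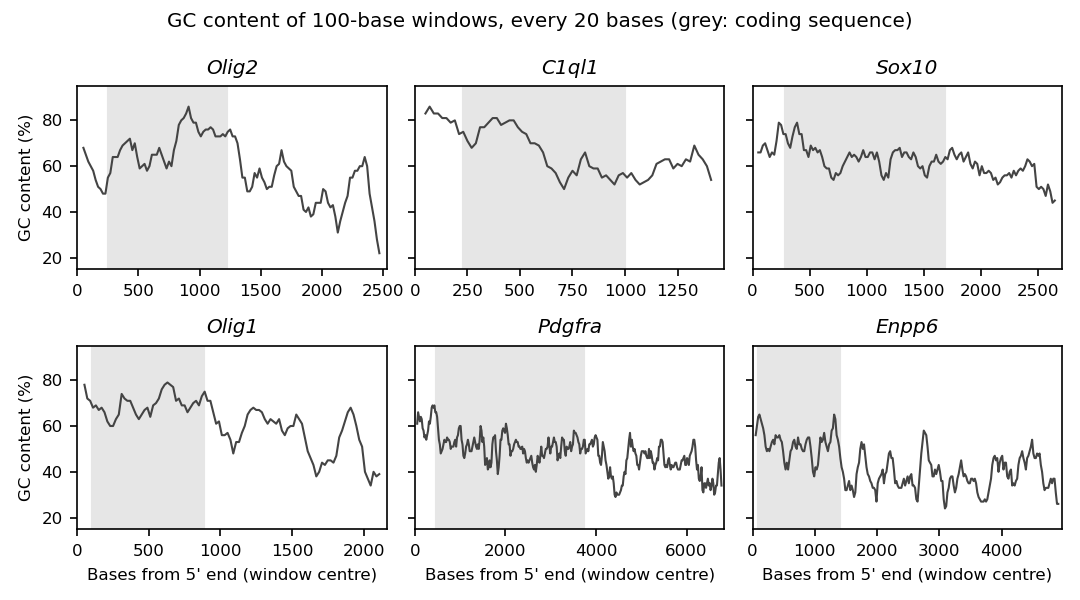
GC content in windows of 100 bases along the reference transcripts of 6 genes, from the 5′ end, with the coding sequence in grey. Windows are drawn every 20 bases and can miss the richest one. Olig2, C1ql1, Sox10 and Olig1 have their highest values in or before the coding sequence, and Pdgfra and Enpp6 stay at or below 71%.

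Other regulators of the lineage differed between the libraries in both directions. Of 14 transcription factors, 10 were tested, 2 were lower in replicate 2 and 1 was higher, with a median log2 ratio of 0.25. Nkx6-2, a homeobox factor of oligodendrocytes, had 79 and 10 reads, or 34.1 ± 37.3 CPM (log2 ratio -2.92, adjusted p = 1.05e-12, exact binomial test). Id4, an inhibitor of basic helix-loop-helix factors that astrocytes and neural progenitors express as well, had 249 and 37 reads, or 109 ± 115 CPM (log2 ratio -2.73, adjusted p = 1.66e-37, exact binomial test). Reads on known transcripts were 76 and 4 for Nkx6-2 and 231 and 4 for Id4, other reads were 3 and 6 and 18 and 33, and both had a richest window of 84% GC. Hes5, a Notch target of progenitors and astrocytes, had 64 and 133 reads and was higher in replicate 2 (log2 ratio 1.05, adjusted p = 1.70e-05, exact binomial test). Id2, the most abundant of these genes at 293 ± 27.5 CPM, was not called (log2 ratio 0.19). Sox8, a relative of Sox10, had 20 and 25 reads, and Myrf and Nkx2-2, which drive differentiation, had 4 and 3 reads over both libraries.

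Genes of the precursor surface, PDGF ligands and genes of newly formed oligodendrocytes gave no calls. Of 11 genes of surface and matrix, 10 were tested and 0 were called by the exact binomial test, with 1, Bcan, at an unadjusted p under 0.05 (0.0208, exact binomial test). The proteoglycan gene Bcan had 250 and 200 reads (172 ± 26.9 CPM) and the receptor phosphatase gene Ptprz1 57 and 65 (46.7 ± 4.39 CPM), both of which astrocytes express too. Of the PDGF ligands and the beta receptor, 3 of 5 genes were tested, 0 were called by the exact binomial test and 0 had an unadjusted p under 0.05, with Pdgfa, the ligand of Pdgfra, at 90 and 71 reads (61.7 ± 10.2 CPM) and Pdgfb at 13 and 15. Of 10 genes of newly formed oligodendrocytes, 7 were tested, 0 were called by the exact binomial test and 2 had an unadjusted p under 0.05, Bcas1 and Rnf122 (9 and 1 reads). Of these 7 genes 6 had a log2 ratio below 0, with a median of -0.53. The most abundant were Bcas1 at 245 and 164 reads (157 ± 43.7 CPM, log2 ratio -0.58, adjusted p = 0.00118 but under 2-fold) and the kinase gene Fyn at 73 and 52 (47.9 ± 11.3 CPM). All 10 had a read in at least 1 library. Of the uncalled genes named here, the richest window had 87% GC in Fyn, 85% in Pdgfb, 81% in Bcan and 78% in Pdgfa. It had 74% in Rnf122, 73% in Ptprz1 and 66% in Bcas1.

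Among the relatives of C1ql1, 1 was higher in replicate 2. C1ql3, a neuronal C1q-like gene, had 27 and 78 reads, or 40.2 ± 27.7 CPM, and was higher in replicate 2 (log2 ratio 1.52, adjusted p = 1.05e-05, exact binomial test). Its richest window had 85% GC. Its known reads were 7 and 6, and reads on other models 20 and 72. C1ql2 had 2 and 8 reads, C1ql4 had none in either library, and Adgrb3, the adhesion receptor that binds these proteins, had 52 and 43 (36.4 ± 4.83 CPM).

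Mature oligodendrocyte genes were abundant, at 5399 ± 281 CPM in sum, with 0 of 13 called by the exact binomial test, 6 at an unadjusted p under 0.05 and a median log2 ratio of -0.066. Mbp, which encodes myelin basic protein, had 4171 and 3314 reads, a difference under 2-fold (log2 ratio -0.33, adjusted p = 7.02e-21, exact binomial test). In this bulk tissue, fewer cells of a type and less RNA per cell cannot be told apart.

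Pdgfra and Cspg4 also mark other cells of the cortex. Pericytes express Cspg4, and the 10 mural genes summed to 117 and 123 CPM, led by Vtn (94 and 79 reads) and Rgs5 (26 and 46), with 0 of 4 tested genes called by the exact binomial test and 1 at an unadjusted p under 0.05. Pdgfrb, the defining pericyte receptor, had 1 and 8 reads. Meningeal fibroblasts express Pdgfra, and their 9 genes summed to 150 and 95.1 CPM, led by Mgp (83 and 47 reads, adjusted p = 0.0200 by the exact binomial test but under 2-fold) and Slc6a13 (46 and 30), with 0 of 5 tested genes called by the exact binomial test, 1 at an unadjusted p under 0.05 and a median log2 ratio of -0.81. All genes of both lists had a read in at least 1 library. The part of these cells in the reads of Cspg4 and Pdgfra was not tested.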

How the data were processed

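The deposited tables hold raw counts, the whole reads that the authors assigned to each transcript model per library, not normalized. Per the file headers they also give other values, the number of exons and length of each model, and the deposited annotations give positions on mm10 with GENCODE M21 and models named by TALON. The aligner is not given in the sources used here. Counts were summed per annotated gene over all models and scaled by the library totals. Genes with at least 10 reads over both libraries were compared by an exact two-sided binomial test with Benjamini-Hochberg adjustment over all genes, with 0.5 reads added in log2 ratios. A count model has no residual degrees of freedom here, so edgeR 4.0.16 and DESeq2 1.42.0 gave scaling factors only. Reference transcripts of the 8 genes were the known transcript with most reads (at least 5), otherwise the longest protein-coding one. For GC content over all tested genes and in the other lists, it was the known transcript with most reads at any count, otherwise the longest annotated. Their sequences came from the GENCODE M21 transcripts. Both tests were checked on simulated data (Python 3.11.15, scipy 1.17.1). From each other list the text names the 2 most abundant genes and every called gene, except 1 gene that is not reported here, and further genes were chosen after their values were seen. The 8 genes and the lists were chosen with earlier results of these data known.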

Additional observations from a re-analysis of the deposited data

Results flagged for a closer look

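Reads of Lims2, which runs on the opposite strand, lay over the exons of Gpr17: 13 in replicate 1 and 11 in replicate 2, beside 10 and 12 reads of Gpr17 itself. They stand out as signal outside the main measurement above the 3 reads that a count of 0 allows, and whether any belong to the other strand was not tested.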

How the results depend on the processing

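No paired analysis was possible because both libraries belong to 1 group. Of the 8 genes, 2 were lower in replicate 2, and 1 with at least 50 reads, when C1ql1 was too low to test. The count was 4 without genomic models, when Sox10 (log2 ratio -3.00) and Cspg4 (-2.90) passed as well. The matching all-gene counts were 644 of 11838 in the main test, 476 of 6612 with at least 50 reads and 864 of 10655 without genomic models. Single-exon Cspg4 reads were 10 ISM reads in replicate 1 and 4 genomic reads in replicate 2, so only the latter were left out. Olig2 and C1ql1 kept their calls in each alternative of scaling, filter, added reads and model class that tested them. Sox10 passed with known transcripts only (-3.43), where 3 lineage genes and 759 of all 7765 genes tested were lower. Over all genes, 191 were higher, 117 with at least 50 reads and 102 with known transcripts only, where 88.2% of calls were lower against 77.1%. The known-read share was lower in 3 lineage genes, in 1 (Sox10) with at least 10 reads in each library, and in 1 (C1ql1) without genomic models, where Olig2 could not be tested and Sox10 was tested and did not pass. The leading-transcript share differed in 45 genes and in 228 with incomplete models in the denominator, and the cause was not tested. None of the 8 genes qualified, as a gene needed 20 known-transcript reads in each library and more than 1 known transcript with reads. Olig1 had the reads but has only 1 annotated transcript. Leaving out a replicate gave a sum of 123 or 250.3 CPM. Depth limits 6 of the 8 genes, which had 16 to 37 reads over both libraries.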
